A study of Mus musculus with 6 samples.

Results

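The genes described here are 10 targets of the unfolded protein response, the programme that adjusts the folding capacity of the endoplasmic reticulum (ER). They are Hspa5, Hsp90b1, Pdia4, Dnajb9, Xbp1, Herpud1, Sdf2l1, Creld2, Hyou1 and Calr. They were chosen by symbol as a contrast to the Atf4 branch of stress signalling, and all 10 were found among the 55450 genes of the table and passed the filter on low counts. Their RNA was measured in whole tissue of the left liver lobe from 6 C57BL/J mice. The knockout (KO) group was 3 mice with LKB1 fl/fl alleles, and the wild-type (WT) group was 3 mice without them. Both groups were injected with AAV8 Cre at 6 weeks of age, and tissue was taken 4 weeks after the virus, when the mice were 10 weeks old. AAV8 is a virus used to carry genes into liver cells, and Cre removes DNA lying between loxP (fl) sites. The promoter that drove Cre is not given in the sources used here. LKB1 is a kinase encoded by Stk11 that phosphorylates AMPK and its relatives. The series title names metabolic reprogramming as the subject, so the question is how these ER genes stood in knockout liver.

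Hepatocytes secrete most plasma proteins, and these proteins fold in the ER. When unfolded proteins build up there, the sensors IRE1 (Ern1), ATF6 and PERK (Eif2ak3) are activated. IRE1 splices the mRNA of Xbp1 into the form that encodes an active transcription factor, cleaved ATF6 enters the nucleus, and both raise the genes of ER chaperones and of ER-associated degradation. PERK phosphorylates the translation factor eIF2α, which favours translation of ATF4, a factor that also responds to amino acid shortage. The values here are totals per gene, which cannot separate spliced from unspliced Xbp1 or show the activity of any sensor.

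Many of these genes carry a known control sequence, the ER stress response element (ERSE), which reads CCAAT, then 9 bases of any kind, then CCACG. The factor NF-Y binds its first part and ATF6 or XBP1 its last. Both strands were searched in RefSeq promoters of build GRCm38.p6, from 250 bases before to 50 after each gene start, and 9 of the 10 genes had a promoter there. Hyou1 had no entry. ERSE was found in 4 of the 9 promoters, against 0.119% of all 32851 promoters of the same length. Since the element was already known in many of these genes, that comparison is no separate support. Of the 4 genes with a match only Creld2 was called lower in the knockout, as described below, and no test compared these genes with one another. The matches found are shown. Each is written 5′ to 3′ on the strand of the gene with 5 bases on either side, and capitals mark the match. In Calr, Creld2 and the second Hsp90b1 site the match reads on the opposite strand.
Hspa5, chr2:34772020-34772048, plus strand: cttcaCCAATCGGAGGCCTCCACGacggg
Hsp90b1, chr10:86705633-86705661, minus strand: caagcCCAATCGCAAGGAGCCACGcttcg
Hsp90b1, chr10:86705528-86705556, minus strand: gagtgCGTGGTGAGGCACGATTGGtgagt
Calr, chr8:84847070-84847098, minus strand: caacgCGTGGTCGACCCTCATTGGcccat
Creld2, chr15:88819515-88819543, plus strand: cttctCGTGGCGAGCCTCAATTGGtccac

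The second form of the element, ERSE-II, reads ATTGG, 1 base of any kind and CCACG, and was found only in Herpud1 among the 9 genes, against 0.0365% of all promoters. Herpud1 also held TTGCATCA, a core of the C/EBP-ATF element through which ATF4 acts, which 0.895% of all promoters hold. No promoter of the 9 genes held TGACGTGG, the core of a further XBP1 and ATF6 element, which 0.676% of all promoters hold. The promoters of Herpud1 and Creld2 are shown because these were the called genes with an ER stress element in the window. They cover the 250 bases before the RefSeq start, with ERSE-II or ERSE in capitals.
Herpud1, chr8:94386179-94386428, plus strand: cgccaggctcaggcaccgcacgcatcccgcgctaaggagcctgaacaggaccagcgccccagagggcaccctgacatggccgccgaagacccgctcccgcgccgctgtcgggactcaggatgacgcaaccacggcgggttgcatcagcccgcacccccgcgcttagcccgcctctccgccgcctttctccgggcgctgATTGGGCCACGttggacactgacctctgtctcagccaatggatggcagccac
Creld2, chr15:88819396-88819645, plus strand: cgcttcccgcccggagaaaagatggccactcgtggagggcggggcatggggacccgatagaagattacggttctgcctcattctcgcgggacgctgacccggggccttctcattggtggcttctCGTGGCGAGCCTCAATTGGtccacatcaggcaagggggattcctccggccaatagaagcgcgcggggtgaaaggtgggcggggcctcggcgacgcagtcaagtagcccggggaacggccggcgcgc
A match describes letters in a window and is not a measured binding site.

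The 6 libraries held between 47659106 and 56147638 counts. Values are given as CPM (a gene's counts relative to its library's total), scaled between libraries by the trimmed mean of M-values. Stk11 was at 11.4 to 22.1 CPM in KO livers and 64.2 to 69.7 CPM in WT, in the direction of the labels. Replicate 1 of each group had Xist counts and almost no Y-linked counts, and the other 4 libraries had the reverse, which the labels do not mention. They are called the Xist-positive pair and the Y-positive libraries below. Changes are also given within the Y-positive libraries (2 against 2) and within the Xist-positive pair, where 1 library stands against 1 and nothing measures the spread. Hepatocyte markers were abundant in every library, with a summed level of 26739 to 70251 CPM over 7 genes in knockout and 77354 to 117523 CPM in WT. These ranges did not overlap, whereas the median log2 fold change over the 7 genes was 0.03.

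In knockout liver 4 of the 10 genes fell past the threshold, a Benjamini-Hochberg adjusted p of 0.05 by the quasi-likelihood test of edgeR, and none rose. The 4 were Xbp1, Herpud1, Hyou1 and Creld2, and each fell to a level between 2.12 and 2.33 times below WT. The other 6 genes, among them the most abundant chaperones Hspa5, Hsp90b1 and Calr, did not pass. Over all 14539 genes tested, 3.37% were called in either direction and 1.22% as lower and 2.15% as higher. No member was called higher by edgeR, DESeq2 or limma voom, and none had an unadjusted p-value under 0.05 in that direction in the edgeR fit of all 6 libraries. Calr had one in the edgeR fits without knockout 1 and of the Y-positive libraries, with adjusted p-values of 0.0712 and 0.0995. Over the 10 genes the median log2 fold change was -0.42, against 0.01 over all genes tested, and 8 of the 10 values were below 0.

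Xbp1 (ENSMUSG00000020484.18, GRCm38 chromosome 11, 5520659 to 5525893, plus strand) encodes the transcription factor of the IRE1 branch. Its level was 75.0, 92.6 and 82.9 CPM in knockout 1 to 3 and 190, 151 and 188 CPM in WT 1 to 3. The highest knockout library lay well under the lowest WT library. The means were 83.5 ± 8.78 and 177 ± 22.1 CPM (SD, n = 3 each), and the log2 fold change was -1.08 ± 0.159 (SE; edgeR adjusted p = 0.0261).

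Herpud1 (ENSMUSG00000031770.16, chromosome 8, 94386438 to 94395377, plus strand) encodes an ER membrane protein that takes part in the disposal of misfolded proteins. Its level was 105, 90.04 and 123 CPM in KO livers and 241, 269 and 231 CPM in WT. The groups did not overlap, and the Xist-positive libraries lay in the middle of each group. The means were 106 ± 16.3 and 247 ± 19.7 CPM (SD, n = 3 each), which is -1.22 ± 0.168 on the log2 scale (SE; edgeR adjusted p = 0.0226).

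Hyou1 (ENSMUSG00000032115.14, chromosome 9, 44379490 to 44392369, plus strand) encodes a large relative of HSP70 that exchanges the nucleotide of the chaperone BiP. Its level was 91.3, 109.9 and 107 CPM in KO livers and 228, 201 and 248 CPM in WT. All 3 knockout libraries lay close together and far under WT. The means were 103 ± 10.0 and 225 ± 23.6 CPM (SD, n = 3 each), and the log2 fold change was -1.13 ± 0.155 (SE; edgeR adjusted p = 0.0223).

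Creld2 (ENSMUSG00000023272.4, chromosome 15, 88819646 to 88826683, plus strand) encodes a secretory pathway protein that is induced by ER stress. Its level was 19.4, 20.3 and 13.8 CPM in KO livers and 39.1, 31.9 and 52.3 CPM in WT. The groups did not overlap, but WT varied more than for the other 3 genes, with an SD of 10.4 CPM around a mean of 41.1 CPM. Its log2 fold change was -1.20 ± 0.231 (SE), and its edgeR adjusted p of 0.0454 was the closest to the threshold.

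**Figure D1:**
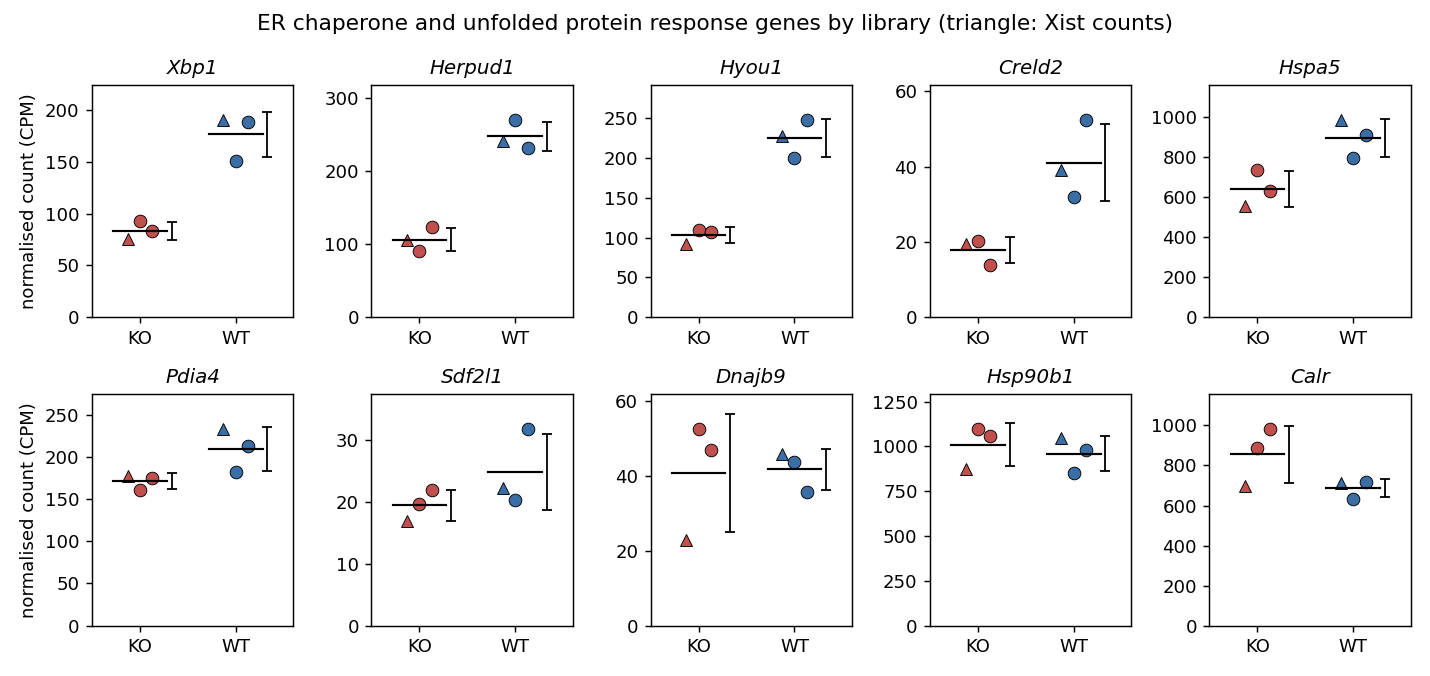
Normalised counts (CPM) of the 10 genes in each library, with the knockout (KO) in red, WT in blue, the group mean as a line and the SD as a bar (n = 3 each). Triangles are the Xist-positive libraries. The top row shows Xbp1, Herpud1, Hyou1, Creld2 and Hspa5 with no overlap between groups, whereas Sdf2l1, Dnajb9, Hsp90b1 and Calr overlap in the bottom row.

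The 4 calls rested on small groups. They all remained without knockout 1, where the adjusted p-values of Xbp1, Herpud1, Hyou1 and Creld2 were 0.00696, 0.00568, 0.00462 and 0.0183 and 30.2% of all genes were called. Without WT 1, where 1.75% of all genes were called, only Herpud1 (0.0482) and Hyou1 (0.0494) passed, and Xbp1 and Creld2 had adjusted p-values of 0.0587 and 0.0875. Leaving out knockout 2, knockout 3, WT 2 or WT 3 left 0 of the 10 genes past the threshold in edgeR, with an unadjusted p-value under 0.05 for 5, 4, 4 and 4 of them. In these same refits the share of all genes called was 0.578%, 0.233%, 0.0401% and 0.133%. With all 6 libraries, 5 of the 10 genes and 3817 of all 14539 genes tested had an unadjusted p-value under 0.05. That count over all genes is not given here for the refits. The fold changes moved little over the 6 refits, from -1.18 to -1.02 for Xbp1, from -1.34 to -1.11 for Herpud1, from -1.21 to -1.06 for Hyou1 and from -1.36 to -0.99 for Creld2. The highest adjusted p-values in these refits were 0.143, 0.140, 0.138 and 0.178.

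With all 6 libraries, other tools and settings gave the same direction for these genes. The same 4 passed in limma voom, which called 2.97% of all genes, and with DESeq2 size factors (3.29%), no filter on low counts (3.25%), a filter on a mean CPM of at least 1 (4.07%) and the Xist state as a term (10.3%). Scaling by library size alone, which called 3.51% of all genes, left Xbp1, Herpud1 and Hyou1, with Creld2 at an adjusted p of 0.0637. It moved the split of all calls from 313 higher and 177 lower to 380 higher and 131 lower. With the replicate number as a block, 0.722% of all genes and none of the 10 passed.

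The other 6 genes, chaperones and enzymes of the ER lumen and their partners, did not pass. Hspa5 (ENSMUSG00000026864.13, chromosome 2, 34771970 to 34777547, plus strand) encodes BiP, the HSP70 of the ER that also restrains the sensors. Its level was 554, 736 and 629 CPM in KO livers and 983, 794 and 908 CPM in WT. The groups did not overlap, but the log2 fold change of -0.48 ± 0.192 (SE) did not pass the threshold in edgeR (adjusted p = 0.170). DESeq2 gave -0.50 with an adjusted p of 0.0438, in a fit that called 15.8% of all genes.

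Pdia4 (ENSMUSG00000025823.9, chromosome 6, 47796141 to 47813430, minus strand) encodes a protein disulfide isomerase, an enzyme that forms and rearranges disulfide bonds. It was at 178, 161 and 176 CPM in KO livers and 233, 182 and 213 CPM in WT, and the log2 fold change was -0.29 ± 0.153 (SE; edgeR adjusted p = 0.277). Its groups stood apart by a narrow margin, between knockout 1 and WT 2. Sdf2l1 (ENSMUSG00000022769.9, chromosome 16, 17130138 to 17132383, minus strand) encodes a partner of ER HSP40 proteins. It was at 16.9, 19.6 and 21.9 CPM in KO livers and 22.3, 20.3 and 31.8 CPM in WT. Its groups overlapped, and the value of -0.35 ± 0.199 on the log2 scale did not pass (adjusted p = 0.308).

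Hsp90b1 (ENSMUSG00000020048.13, chromosome 10, 86690209 to 86705509, minus strand) encodes GRP94, the HSP90 of the ER. It was at 872, 1097 and 1060 CPM in KO livers and 1045, 853 and 982 CPM in WT, and the groups overlapped almost entirely. Its log2 fold change was 0.07 ± 0.190 (SE; edgeR adjusted p = 0.836), and it was -0.01 without WT 2. Exons of Hsp90b1 share 632 nt, summed over the genes, with the annotated genes 1810014B01Rik, Gm15344 and Gm25745. How reads there were divided is uncertain. The first of these genes, on the opposite strand, had a mean count of 207 per library. That is small beside Hsp90b1, at 853 CPM or more in libraries of at least 47659106 counts. Calr (ENSMUSG00000003814.8, chromosome 8, 84841850 to 84846934, minus strand) encodes calreticulin, a lectin chaperone that binds calcium and folds glycoproteins. It was at 697, 885 and 982 CPM in knockout against 711, 634 and 716 CPM in WT. Knockout 2 and 3 lay above all WT libraries and knockout 1 did not, and the log2 value of 0.31 ± 0.195 (SE), the highest of the 10 genes, did not pass (adjusted p = 0.343).

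Dnajb9 (ENSMUSG00000014905.4, chromosome 12, 44205559 to 44210326, minus strand) encodes ERdj4, an HSP40 protein that brings BiP to the sensor IRE1. It was at 23.0, 52.6 and 47.0 CPM in KO livers and 45.8, 43.8 and 35.6 CPM in WT. Knockout 1 was the lowest of all libraries and knockout 2 and 3 were the highest. Over 6 libraries its log2 fold change was -0.03 ± 0.299 (SE; edgeR adjusted p = 0.955). Its direction was opposite without knockout 1, at 0.25 (adjusted p = 0.219), and above 0 by library size alone.

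**Figure D2:**
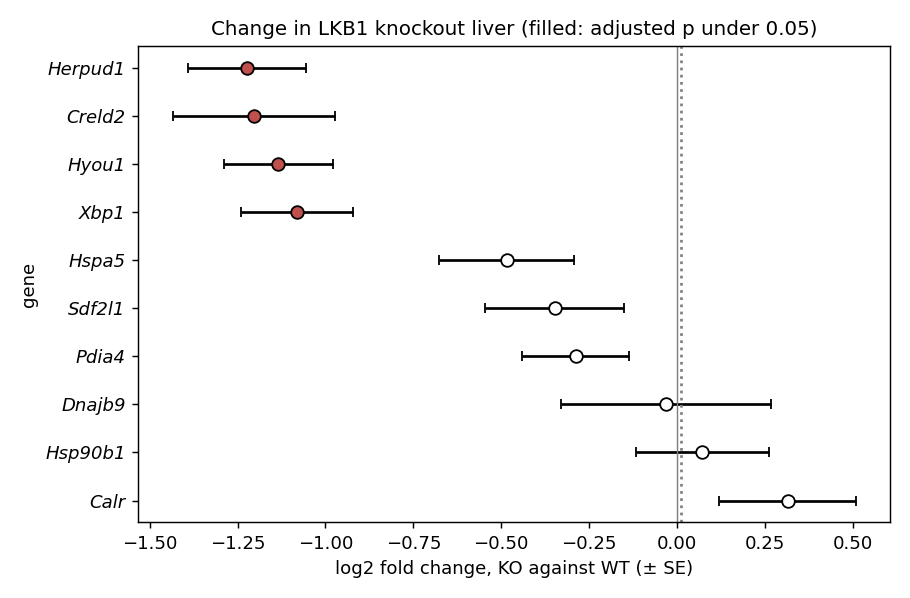
Log2 fold change of each gene in knockout against WT from edgeR, with its SE, n = 3 libraries each. Filled points passed an adjusted p-value of 0.05, and the dotted line is the median over all genes tested (0.01). Herpud1, Creld2, Hyou1 and Xbp1 lie between -1.22 and -1.08, and the other 6 genes between -0.48 and 0.31.

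No overlap with the knockout below WT was seen for 6 of the 10 genes, the 4 called genes with Hspa5 and Pdia4, against 15.5% of all genes tested. The summed level of the 4 called genes was 310 ± 17.9 CPM in KO livers and 690.5 ± 34.1 in WT (n = 3 each, SD). The summed level of the other 6 was 2736 ± 343 and 2818 ± 264 CPM, a difference smaller than either SD. The 4 genes made up 10.2% ± 0.750 of the counts of all 10 in knockout and 19.7% ± 0.945 in WT. The sums were split by the calls in these same libraries, so the contrast between them largely follows from that split.

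Levels of different genes were compared as CPM per kilobase of annotated exon. In WT, Calr was at 239 ± 16.1, Hsp90b1 at 238 ± 24.3 and Hspa5 at 212 ± 22.6 CPM per kilobase (SD, n = 3 each), with ranges that overlapped. Herpud1 followed at 106 ± 8.44 and Pdia4 at 87.3 ± 10.7 CPM per kilobase, and Xbp1 was at 54.4 ± 6.79. Hyou1, at 31.2 ± 3.26, and Creld2, at 30.1 ± 7.59, did not differ beyond their spread. The ranges of both overlapped that of Sdf2l1 at 22.4 ± 5.56. Dnajb9 was the lowest at 16.4 ± 2.12 CPM per kilobase. In knockout the order per kilobase changed for 3 of the called genes. Herpud1 at 45.4 ± 6.99 lay under Pdia4 at 71.5 ± 3.87 CPM per kilobase. Hyou1 at 14.2 ± 1.39 and Creld2 at 13.1 ± 2.60 had means under those of Sdf2l1 at 17.6 ± 2.25 and Dnajb9 at 16.0 ± 6.16, and the range of Dnajb9 overlapped both. Hspa5 at 151 ± 21.6 lay under Calr at 297 ± 50.3 CPM per kilobase in knockout.

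The 4 called genes were lower in knockout within each kind of library, but they were called from these same 6 libraries. Their likeness between the subsets is therefore no separate support. In the Y-positive libraries their log2 ratios of knockout to WT were -0.95 for Xbp1, -1.25 for Herpud1, -1.04 for Hyou1 and -1.29 for Creld2. In the Xist-positive pair they were -1.34, -1.20, -1.32 and -1.01. An edgeR fit of the 4 Y-positive libraries called the same 4 genes, with adjusted p-values of 0.00907, 0.00814, 0.00635 and 0.0222, but it also called 33.3% of all genes. Of the 10 genes 7 were lower in both subsets, against 32.4% of all genes tested. The median over the 10 genes was -0.31 in the Y-positive libraries and -0.91 in the Xist-positive pair, against 0.00 and -0.02 over all genes.

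Dnajb9 had the widest gap between subsets, with a log2 ratio of 0.33 in the Y-positive libraries and -0.99 in the Xist-positive pair. Calr had 0.47 and -0.03, and Hsp90b1 had 0.24 and -0.26. The difference between subsets was tested as an interaction in edgeR, which called 2.9% of all genes. It was -1.32 ± 0.240 (SE) for Dnajb9, with an adjusted p of 0.0573, and the other 9 genes had adjusted p-values of 0.415 or more. No member passed in edgeR. Dnajb9 passed in DESeq2 (adjusted p = 0.003687), which called 6.66% of all genes for this difference, and leaving out 1 Y-positive library at a time gave edgeR adjusted p-values from 5.16e-05 (without knockout 3) to 0.268 (without WT 3). It passed without knockout 2 (0.0007518) and not without WT 2 (0.156), and Hspa5 passed without knockout 3 (0.0288). The share of all genes called in these refits was 19.9% without knockout 2, 31.2% without knockout 3, 0.587% without WT 2 and 0.446% without WT 3. Knockout 1 was the lowest of the knockout libraries for 7 of the 10 genes, and knockout 2 was the highest for 6.

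**Figure D3:**
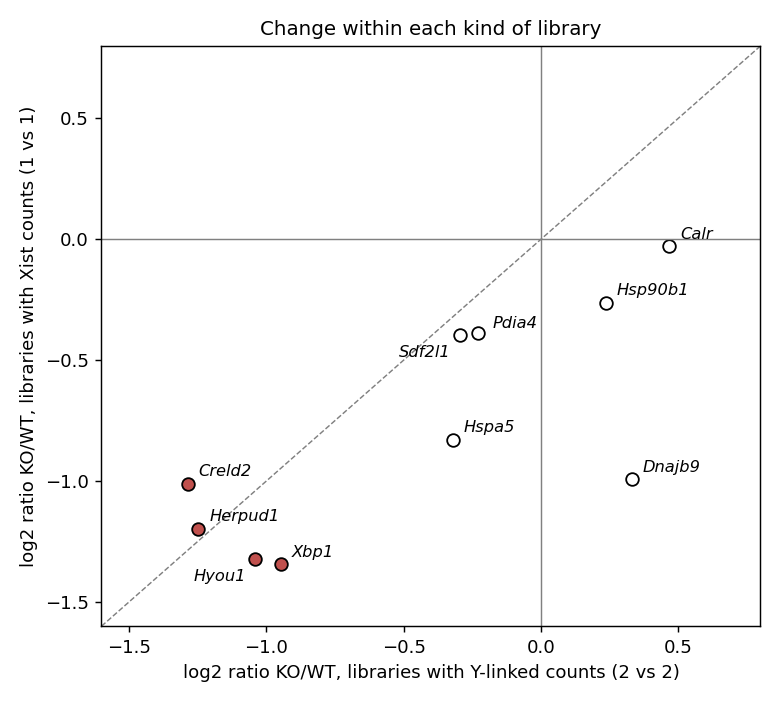
Log2 ratio of knockout to WT for each gene within the 4 Y-positive libraries (horizontal) and within the Xist-positive pair (vertical). Filled points are the called genes and the dashed line marks equal ratios. The 4 called genes, which were called from these same libraries, lie below -0.9 on both axes, and Dnajb9 lies at 0.33 and -0.99.

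Further genes of the pathway were read from lists of ER and stress genes. Sensors and membrane-bound factors gave 0 calls of 10 tested in edgeR, where 3.37% of all genes were called. Of the 10, 3 had an unadjusted p-value under 0.05, against 3817 of all 14539 genes tested. There was 1 call in DESeq2 (15.8% of all genes) and 0 in limma voom. Ern1 was at 64.3, 56.1 and 48.3 CPM in KO livers and 71.8, 88.7 and 98.6 CPM in WT. These values did not overlap, and the log2 fold change of -0.62 ± 0.171 (SE) had an edgeR adjusted p of 0.0866. Atf6 was at 90.8 ± 19.6 and 89.4 ± 2.79 CPM and Eif2ak3 at 14.4 ± 3.67 and 13.9 ± 1.80 CPM in KO livers and WT (SD, n = 3 each). Mbtps2, a protease that cleaves ATF6, was at 14.9 ± 3.79 and 9.61 ± 0.560 CPM (edgeR adjusted p = 0.121). Without knockout 1 there were 3 calls of 10 in this list, where 30.2% of all genes were called, namely Ern1 (0.0234), Mbtps2 (0.00533) and Creb3l3 (0.00460).

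Of 27 other ER folding factors tested, 3 fell in edgeR (11.1%), against 1.22% of all genes called lower. None rose, and the median was -0.28. Hspa13, an HSP70 relative of the ER, fell from 53.7 ± 1.78 to 23.0 ± 2.36 CPM (SD, n = 3 each), which was -1.22 ± 0.120 on the log2 scale (SE; edgeR adjusted p = 0.00942). Manf, a secreted factor that binds BiP, fell from 70.7 ± 8.27 to 44.4 ± 2.06 CPM (adjusted p = 0.0455). Dnajc10, a disulfide reductase of the ER, fell from 34.4 ± 2.30 to 21.9 ± 2.18 CPM (adjusted p = 0.0446). No overlap with the knockout below WT was seen for 12 of the 27, against 15.5% of all genes tested. The call of Hspa13 was lost without knockout 3, WT 2 or WT 3, where the adjusted p-values were 0.0669, 0.0854 and 0.0811. The calls of Manf and Dnajc10 were lost without knockout 2, knockout 3, WT 1, WT 2 or WT 3 (adjusted p from 0.0890 to 0.215). Without knockout 1 there were 13 calls of 27 in this list, 10 of them lower, where 30.2% of all genes were called. The median was -0.18 without WT 3. By library size alone Hspa13 was the only call, with Manf at an adjusted p of 0.0711 and Dnajc10 at 0.0870.

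Genes of protein entry into the ER and of N-glycosylation gave 1 call of 23 tested (4.35%), against 3.37% of all genes. No overlap with the knockout below WT was seen for 13 of the 23, against 15.5% of all genes tested. Ssr1, a subunit of the translocon-associated complex, fell from 128 ± 4.55 to 81.3 ± 7.58 CPM (SD, n = 3 each; edgeR adjusted p = 0.0467). Sec11a, of the signal peptidase, was at 25.3 ± 1.46 against 37.6 ± 3.10 CPM with an adjusted p of 0.0505. The call of Ssr1 was lost without a filter (0.0523) and without knockout 2, knockout 3, WT 1, WT 2 or WT 3 (adjusted p from 0.107 to 0.213), and 7 of the 23 genes were called without knockout 1, where 30.2% of all genes were called. ER-associated degradation, the pathway in which Herpud1 acts, gave 0 calls of 20 in edgeR, 2 in DESeq2 (15.8% of all genes) and 0 in limma voom. In edgeR 4 of the 20 had an unadjusted p-value under 0.05, against 3817 of all 14539 genes tested. Its median was 0.05, and -0.02 to 0.09 without 1 library. Selenos was at 85.6 ± 16.1 against 57.7 ± 1.06 CPM (adjusted p = 0.0921) and Derl3 at 1.46 ± 0.387 against 4.53 ± 2.93 CPM (adjusted p = 0.103). Without knockout 1 this list had 5 calls of 20, among them Selenos (0.00470), where 30.2% of all genes were called.

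The Atf4 branch had values mostly above 0. Of its 21 genes tested 19 had values above 0, 8 had no overlap with the knockout above WT (16.9% of all genes), and the median was 1.08. Without knockout 2 the median was 0.40 and 15 of 21 values lay above 0, and over the other 5 refits without 1 library the median was 1.14 to 1.48. Only Atf5, a transcription factor translated under eIF2α phosphorylation, rose past the threshold, from 167 ± 33.8 to 641 ± 55.1 CPM (SD, n = 3 each; log2 fold change 1.94 ± 0.203 SE, edgeR adjusted p = 0.0109). This was 1 of 21 genes (4.76%), where 2.15% of all genes were called higher. The call of Atf5 was lost without knockout 3, WT 2 or WT 3 (0.0592, 0.102 and 0.104). DESeq2, which called 15.8% of all genes, called 7 of the 21 as higher and limma voom called 1. Without knockout 1 edgeR called 10 of 22, where it called 30.2% of all genes.

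Several members of the Atf4 branch varied widely between the knockout mice. Atf4 itself was at 101 ± 28.6 CPM in KO livers and 81.0 ± 12.6 CPM in WT (edgeR adjusted p = 0.429). Ddit3, which encodes the factor CHOP, was at 2.90, 14.9 and 6.26 CPM in KO livers and 2.701, 2.7 and 3.16 CPM in WT (adjusted p = 0.147). Asns, asparagine synthetase, was at 14.0, 47.5 and 43.7 CPM against 0.651, 4.55 and 7.16 CPM, with no overlap and an adjusted p of 0.0830. Trib3, a pseudokinase induced by CHOP, was at 42.2 CPM in knockout 2 and at 4.34 and 6.86 CPM in knockout 1 and 3, against 5.35 to 9.41 CPM in WT. Ddit4, an inhibitor of mTORC1 signalling, had 6.30, 59.3 and 22.7 CPM against 3.55 to 4.47 CPM (adjusted p = 0.0760). The hormone gene Fgf21 had 3.14, 9.25 and 1.72 CPM against 0.424 to 1.44 CPM (adjusted p = 0.103). Without knockout 1, where edgeR called 30.2% of all genes, Atf4 (0.0482), Ddit3 (0.0134), Asns (0.0220) and Ddit4 (0.00373) passed. Trib3 and Fgf21 passed in no refit without 1 library, where their lowest edgeR adjusted p-values were 0.104 and 0.0506.

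**Figure D4:**
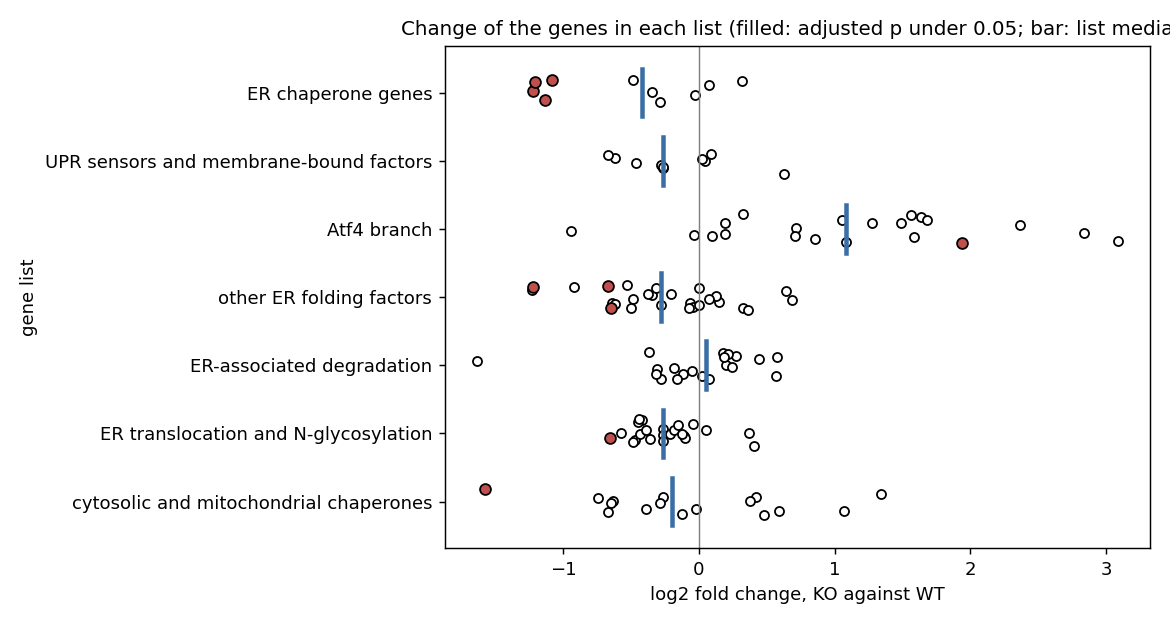
Log2 fold change in knockout against WT for each tested gene of the 10 ER genes and of the 6 comparison lists, with list medians as bars. Filled points passed an adjusted p-value of 0.05. The 10 ER genes have a median of -0.42 and the Atf4 branch a median of 1.08 (0.40 without knockout 2), with Atf5 its only filled point.

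Chaperones outside the ER had a median of -0.20 over 16 genes, with 1 call (6.25%, against 3.37% of all genes). Without knockout 1 the median was -0.08, and 6 were called higher and 1 lower where 30.2% of all genes were called. Without WT 2 the median was -0.13. Hspa1b, a heat-inducible cytosolic HSP70, fell from 11.3 ± 3.47 to 3.77 ± 0.343 CPM (SD, n = 3 each; edgeR adjusted p = 0.0322), and its count depends on how reads were divided with its near-identical copy Hspa1a. The call was lost without knockout 2, knockout 3, WT 2 or WT 3 (0.0937, 0.158, 0.154 and 0.159). Hspa9, the mitochondrial HSP70, was at 941, 1816 and 1831 CPM in KO livers and 581, 633 and 600.2 CPM in WT. Its log2 fold change was 1.34 ± 0.289 (SE; adjusted p = 0.0566), and it passed without knockout 1 (0.00191), by library size alone (0.0484), without a filter (0.0381) and with the Xist state as a term (0.0354). The mitochondrial chaperones Hspd1, Hspe1 and Trap1, chosen after their values were seen, also lay above WT with no overlap, Hspd1 with 758 ± 107 against 505 ± 37.9 CPM, Hspe1 with 199.5 ± 58.3 against 95.2 ± 4.24 CPM and Trap1 with 247 ± 26.2 against 191 ± 13.8 CPM. Their edgeR adjusted p-values were 0.110, 0.0598 and 0.182. Of the 16 genes 5 lay above WT with no overlap and 4 below it, against 16.9% and 15.5% of all genes tested. The lower 4 were Hspa1b, Hspa8 (log2 fold change -0.74), Hsph1 (-0.65) and Dnaja1 (-0.29), of which only Hspa1b was called.

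The 5 genes whose log2 CPM over the 6 libraries was most like the mean standardised profile of the 10 members were Selenok (Pearson r of 0.985), Tubgcp6 (0.970), Zeb1 (0.960), Il6ra (0.957) and Cad (0.951), out of 7494 genes compared. The 6 points of each coefficient share their libraries and depths. Selenok, a selenoprotein of the ER membrane, was at 42.3, 50.1 and 50.1 CPM in KO livers and 59.5, 51.8 and 56.2 CPM in WT. Its change of -0.23 ± 0.124 on the log2 scale (SE) did not pass (edgeR adjusted p = 0.280). Tubgcp6, Zeb1, Il6ra and Cad changed by -0.21, -0.12, -0.73 and -0.70, and none passed (edgeR adjusted p = 0.331, 0.538, 0.0828 and 0.0547).

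Markers of other cell types were read in the same libraries, since fewer cells of a type and less RNA per cell cannot be told apart in whole tissue. The 7 endothelial markers summed to 72.9 to 120 CPM in KO livers and 146 to 198 CPM in WT. The 6 plasma and B cell markers present, from cells rich in ER chaperones, summed to 1.31 to 7.12 CPM against 6.65 to 12.4 CPM. Of 6 pancreatic acinar markers 5 were at 0 in every library, and the sum was 3.26 to 6.18 CPM against 6.49 to 18.3 CPM. The 5 erythroid markers summed to 42.0 to 255 CPM against 188 to 432 CPM, and the 7 macrophage markers to 66.3 to 159.5 CPM against 100.5 to 136 CPM. The 5 stellate markers summed to 34.3 to 71.4 CPM against 54.1 to 96.4 CPM, the 5 cholangiocyte markers to 24.8 to 74.2 CPM against 39.5 to 72.7 CPM and the 5 T and NK cell markers to 0.764 to 1.602 CPM against 1.35 to 2.43 CPM. No gene of these 8 lists was called in edgeR, and 1 of the 7 hepatocyte markers, Tat, was called higher. The part of these shifts in the lower levels of the ER genes was not tested.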

How the data were processed

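Poly(A) RNA of 6 livers was sequenced, 1 library per mouse, and the authors deposited 1 table of expected counts per gene. The submitters' processing notes list cutadapt 1.18, STAR 2.7.0f, RSEM 1.3.1 and build mm9. All 55450 gene identifiers, with versions, were found in GENCODE M21 (GRCm38), which gave positions and exon lengths. The use of strand is not given in the sources used here.

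Counts were rounded, filtered with filterByExpr (14539 genes kept) and scaled by TMM. They were compared with edgeR 4.0.16 (quasi-likelihood test, group only, Benjamini-Hochberg over all genes) in R 4.3.3. The pipeline was tested on simulated data with 4-fold changes, which are larger than those of the called ER genes. Log2 ratios within subsets used a prior count of 2. Alternatives used DESeq2 1.42.0, limma voom 3.58.1, other scalings and filters, added terms and fewer libraries. Groups and replicate numbers came from titles.

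The members and lists were chosen with earlier results of these data known. Named are the members, Stk11, up to 5 called genes per list (or the 2 nearest), 10 set genes, and the 5 most similar profiles among genes of at least 10 CPM.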

Additional observations from a re-analysis of the deposited data

Results flagged for a closer look

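The change of Creb3l3 differed between the 2 kinds of library in the edgeR interaction test, which called 2.9% of all genes. Ero1lb and Vldlr of the lists also passed that test. Creb3l3 encodes a membrane-bound factor of hepatocytes that is cleaved like ATF6. It was at 271, 99.7 and 113 CPM in knockout 1 to 3 and 215, 274 and 281 CPM in WT 1 to 3. Knockout stood at -1.39 against WT (log2 ratio) in the Y-positive libraries and at 0.34 in the Xist-positive pair, a difference of 1.72 with an adjusted p of 0.0293 for the interaction in edgeR. The Xist-positive pair holds 1 library of each group. Refits without 1 Y-positive library called widely different shares of all genes, as given above for Dnajb9. Without WT 2 or WT 3 the adjusted p was 0.212 or 0.230, and without knockout 2 or knockout 3 it was 2.488e-05 or 1.877e-06.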

How the results depend on the processing

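The call of 4 ER genes was the same with DESeq2 size factors, no filter, a mean CPM of at least 1, limma voom, the Xist state as a term, and the Y-positive libraries alone. Library size alone lost Creld2 (adjusted p = 0.0637) and DESeq2 added Hspa5. With the replicate number as a block, 105 genes and 0 of the 10 ER genes passed in edgeR, 4 of the 10 having an unadjusted p-value under 0.05. Without the block, 5 of the 10 and 3817 of all 14539 genes tested had an unadjusted p-value under 0.05. Same-numbered libraries share only a number, and their deviations from the group means correlated at 0.178, 0.0443 and 0.0679. The count over all genes was 490, and it was 771 without a filter, 2290 in DESeq2, 1504 with the Xist state as a term and 4847 in the Y-positive libraries. Leaving out 1 library gave 6 to 4473 genes and 0 to 4 of the ER genes. The interaction, whose alternatives were chosen after seeing the data, called 421 genes, 968 in DESeq2 and 67 to 4679 without 1 library. The block also ended the calls of Hspa1b (0.0664), Manf (0.0949), Dnajc10 (0.0836) and Ssr1 (0.0942). The direction turned for 5 named genes, from values near 0 for Dnajb9, Hsp90b1, Atf6 and Eif2ak3 and from 1.28 for Trib3. For Dnajb9 the values were 0.0123 by library size alone, 0.32 in the Y-positive libraries and from -0.25 (without knockout 2) to 0.25 (without knockout 1) when 1 library was left out. Leaving out 1 library gave -0.0071 to 0.16 for Hsp90b1, -0.39 (without knockout 2) to 1.74 for Trib3, -0.0781 to 0.185 for Atf6 and -0.14 to 0.22 for Eif2ak3. Atf6 was at -0.0062 with a mean CPM of at least 1, -0.0020 with the block and -0.0019 with the Xist state. Median log2 fold changes over all genes shifted by -0.01 with DESeq2 size factors and 0.05 by library size alone. Every library held at least 47659106 counts, and the calls of the 4 genes turned on single libraries of groups of 3.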
